A study of Mus musculus with 12 samples.

Results

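The genes described here are 32 genes that act in G2 and mitosis: cyclins and Cdk1, Cdc25 phosphatases, mitotic kinases, the spindle assembly checkpoint, kinetochore and chromosomal passenger proteins, spindle motors, partners of the anaphase-promoting complex, and central spindle and cytokinesis proteins. They were listed by name, and each was read from its brightest probe set on average, among those that the platform annotation gives to that gene alone. Of the 32 genes, 31 had such a probe set, out of 18193 genes in all, and Ccnb1 had none and is not described. Whole mouse embryos of stage E10.5 gave 12 RNA samples, each read on 1 Affymetrix 3' expression array, and no treatment is named. There were 4 genotypes with 3 arrays each: double mutants, which carry both Acdacd/acd and p53-/- (double), Acdacd/acd alone (acd), p53-/- alone (p53), and wild type (wt). Acd encodes TPP1, a shelterin protein that protects chromosome ends, and p53 is a transcription factor that responds to DNA damage with arrest or cell death. The labels call the replicates biological but do not give strain, litter, sex or a description of either allele, nor whether a sample held more than 1 embryo.

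Cells enter mitosis when Cdk1, bound to a B-type cyclin, is freed of inhibitory phosphates by Cdc25. Polo and Aurora kinases then build the spindle, the checkpoint holds anaphase until every kinetochore is attached, and Cdc20 switches on the ubiquitin ligase that ends mitosis. These transcripts peak together late in the cycle, and p53 is known to lower them indirectly: its target p21, encoded by Cdkn1a, favours the DREAM repressor complex, which binds a promoter element called CHR. A midgestation embryo is rich in dividing cells. In RNA of whole embryos, fewer dividing cells and less of a transcript per dividing cell cannot be told apart.

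All values are RMA log2 values, so a difference of 1 is a doubling, and array medians lay between 5.33 and 5.40. Every one of the 31 genes passed the filter on dim genes, the 40th percentile of an array's probe sets, on 12 of 12 arrays, and all 31 were among the 13501 genes tested. Double replicates 1 and 2 stood apart over all genes, with median correlations of 0.972 and 0.987 with the other arrays, against 0.995 to 0.997 for the other 10. Acd itself lay between 8.22 and 8.44 in the double and acd arrays and between 8.84 and 9.05 in the p53 and wt arrays. The p53 transcript was not analysed here. Markers of heart muscle (10 of 10 listed), differentiating neurons (13 of 13), neural progenitors (7 of 7) and primitive erythroid cells (8 of 11) were among the genes tested, as in RNA of a whole embryo. The median of 3 Y-linked transcripts lay between 3.07 and 3.43 above the wt mean in double replicate 1, all acd, all p53 and wt replicate 1, and between -1.89 and -1.37 relative to it in the other 4 arrays, so sex was not balanced between the genotypes. Its part in the results was not tested.

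In embryos with a single mutation the mitosis genes lay close to wt, and in double embryos most of them lay lower in replicates 1 and 2 but not in replicate 3. Relative to the mean of the wt arrays, the median of the 31 genes was -0.37, -0.12 and 0.042 in double replicates 1, 2 and 3. It was -0.0029, -0.0033 and 0.0074 in the acd arrays, 0.025, -0.0088 and 0.011 in the p53 arrays and -0.0046, 0.0087 and -0.017 in the wt arrays. More than 0.2 below the wt mean lay 21 of 31 genes in double replicate 1, where 30.4% of all tested genes did. In double replicate 2 it was 6 genes, where 17.8% of all genes did, and in replicate 3 it was 0 genes, where 9.18% did. Both double replicates 1 and 2 lay below all 10 other arrays for 16 of the 31 genes and for 12.5% of all tested genes, a count made after the values were seen. The spread between the embryos of a genotype had a median SD of 0.23 in double, 0.05 in acd, 0.08 in p53 and 0.04 in wt, and double had the largest of the 4 SDs for 26 of the 31 genes. Over all tested genes these median SDs were 0.21 in double, 0.07 in acd, 0.10 in p53 and 0.06 in wt, so double was the widest there as well. The share of all genes with their largest SD in double was not counted.

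**Figure D1:**
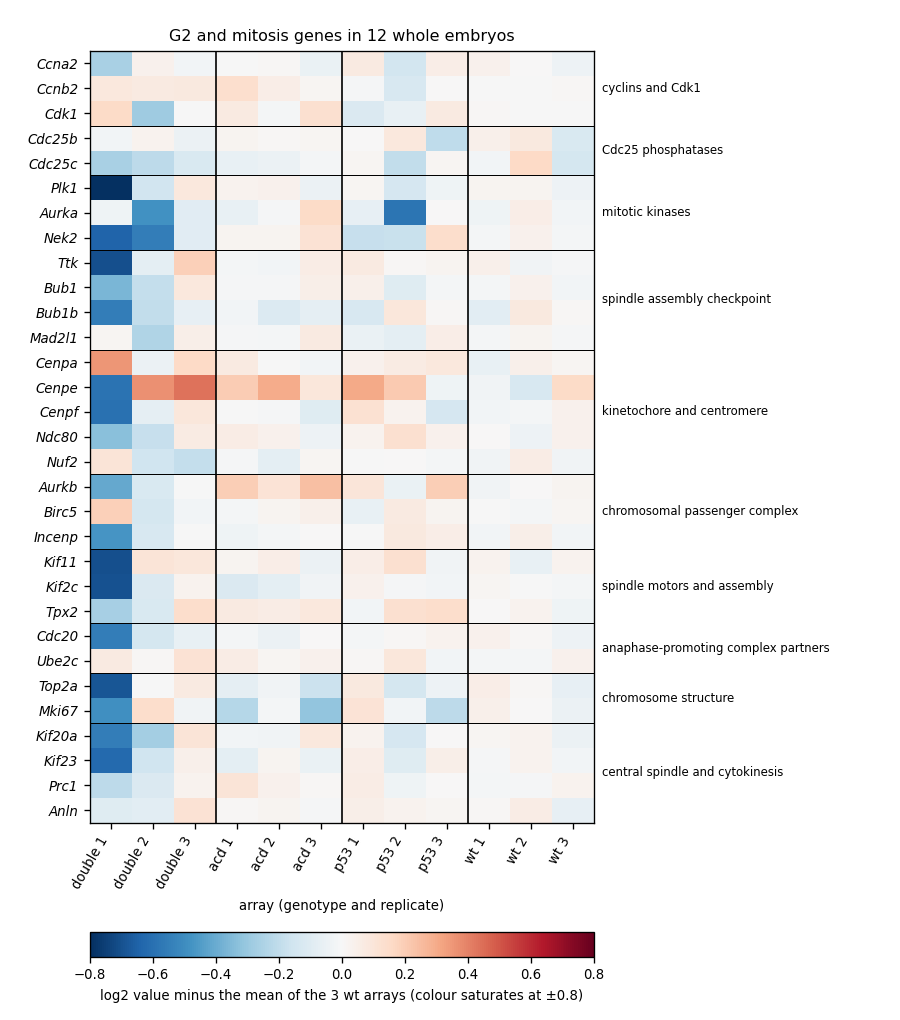
Each row is 1 of the 31 G2 and mitosis genes, ordered by role, and each column 1 array; colour gives the log2 value minus the mean of the 3 wt arrays, blue lower and red higher. The blue block lies in double replicate 1, where Plk1 reached -0.82 and Cenpa 0.35.

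**Figure D2:**
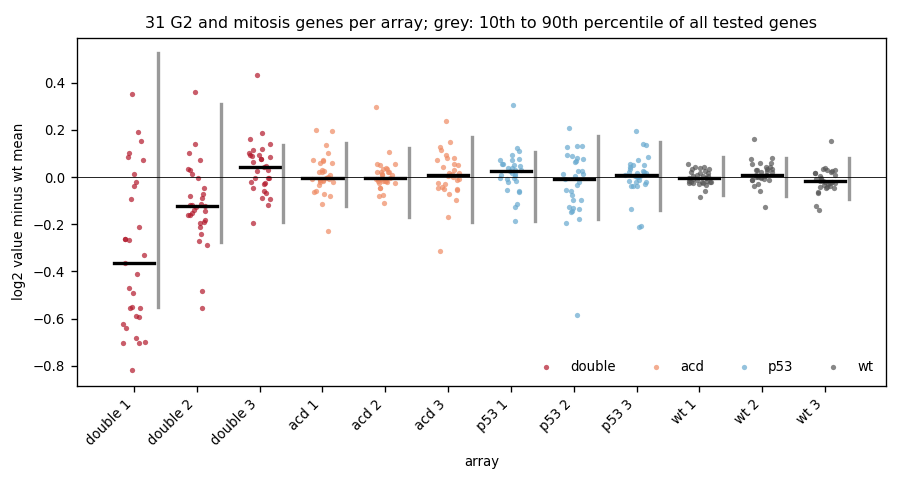
Points are the 31 genes in each array, as log2 value minus the mean of the 3 wt arrays, the black bar is their median and the grey line spans the 10th to 90th percentile of the 13501 genes tested. The medians of double replicates 1 and 2 were -0.37 and -0.12, and those of the other 10 arrays lay between -0.017 and 0.042.

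None of the 31 genes passed limma's test in any comparison (a mean per genotype fitted to all 12 arrays, Benjamini-Hochberg adjusted p of 0.05 over 13501 genes). In double against p53, the effect of Acdacd/acd in embryos that lack p53, 0.00741% of all genes passed and the smallest adjusted p among the 31 was 0.463. Of the 31 genes 25 were lower, with a median of -0.14 against -0.01 over all genes, of which 52.0% were lower. An unadjusted p under 0.05 with a lower value was found for 6 of 31 genes (19.4%), and for 5.67% of all genes. The 3 double arrays lay wholly below the 3 p53 arrays for 2 of the 31 genes, Incenp and Cdc20, where 5.01% of all genes did, and wholly above them for Ccnb2, where 3.29% did. The shares of genes without overlap are near those backgrounds.

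In double against acd, the effect of p53-/- in Acdacd/acd embryos, 0% of all genes passed, and 27 of the 31 were lower with a median of -0.16. An unadjusted p under 0.05 was found for 2 of the 31, both lower, where 6.27% of all genes had one with a lower value. On the probe sets used, the double arrays lay wholly below the acd arrays for 4 genes, Cdc25c, Nek2, Aurkb and Cdc20, where 6.9% of all genes did. They lay wholly above the acd arrays for 0 genes, where 4.41% did. In double against wt 0.0148% of all genes passed, 26 of the 31 were lower with a median of -0.16, and 3 had an unadjusted p under 0.05, where 6.41% of all genes had one with a lower value. Aurka, Nek2 and Cdc20 lay wholly below wt, where 8.24% of all genes did, and Ccnb2 wholly above it, where 4.96% did. The 3 comparisons share the double arrays, so their like medians are not separate evidence.

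In acd against wt, the effect of Acdacd/acd in embryos not labelled p53-/-, 0.0148% of all genes passed. Of the 31 genes 11 were lower, the median was 0.01 and 0 had an unadjusted p under 0.05. Over all genes 1.77% had one (1.13% with a lower value). Kif2c lay wholly below wt on the probe set used, where 9.86% of all genes did. On a second Kif2c probe set acd replicate 1 (8.953) lay above wt replicate 3 (8.777). In p53 against wt 0% of all genes passed, 15 of the 31 were lower, the median was 0.0002 and 0 had an unadjusted p under 0.05, where 0.726% of all genes did (0.393% with a lower value). No gene of the 31 separated the p53 and wt arrays, where 3.36% of all genes lay wholly below and 3.42% wholly above. The interaction, taken as double minus p53 with acd minus wt subtracted, passed for 0% of all genes. There 26 of the 31 were lower with a median of -0.16, and only Aurkb had an unadjusted p under 0.05, where 3.93% of all genes did, 1.47% with a lower value.

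The double medians rest on replicates 1 and 2. With replicate 3 as the only double array, the spread being taken from the other genotypes, the median of the 31 genes was 0.041 in double against p53, 0.047 in double against acd and 0.042 in double against wt. Of the 31 genes 0 passed, where 0.207%, 0.23% and 0.193% of all genes did in those comparisons. Without double replicate 3, which leaves the arrays that stood apart, the medians were -0.27, -0.28 and -0.26. Then 7 of the 31 genes passed in double against p53 (Aurkb, Cdc20, Incenp, Kif20a, Ndc80, Nek2 and Tpx2, all lower), where 13% of all genes passed. In double against acd 5 passed (Aurkb, Bub1, Kif20a, Ndc80 and Nek2, where 13.9% of all genes did), and in double against wt 4 passed (Bub1, Bub1b, Kif20a and Nek2, where 12.2% did), while Nek2 alone passed in the interaction, where 3.25% did. Without double replicate 1 the medians were -0.051, -0.050 and -0.046, and 0 of the 31 genes passed, where 0.00741%, 0% and 0.0222% of all genes did. With array weights, which lower the say of arrays far from their genotype's mean, double replicates 1, 2 and 3 had weights of 0.068, 1.61 and 0.246, so the double mean rested mostly on replicate 2, 1 of the arrays that stood apart. Then 3 genes passed in double against acd (Aurkb, Cdk1 and Nek2, where 13.1% of all genes did) and 2 in double against wt (Aurka and Nek2, where 13.4% did). None passed in double against p53, where 0.904% of all genes did, or in acd against wt, where 0.0222% did.

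**Figure D3:**
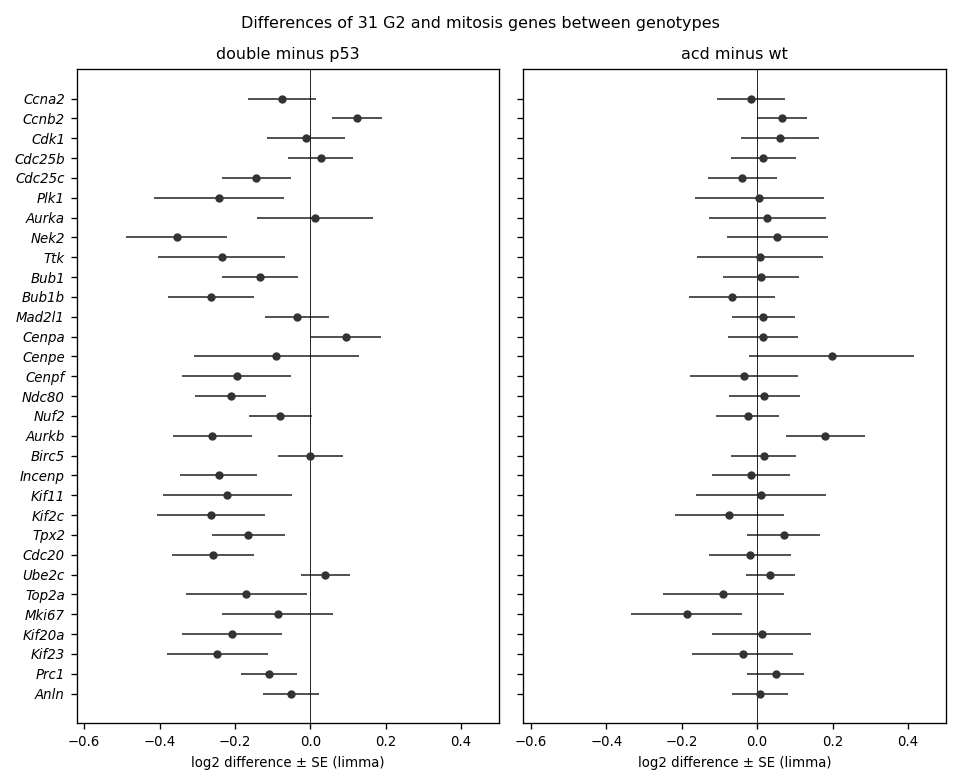
Points are the log2 differences of the 31 genes from limma with their SE, as double minus p53 on the left and acd minus wt on the right. On the left 25 of 31 points lie below 0 and on the right 11 of 31, and none passed.

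The promoters of these genes share sequence features that the listing by name did not use. RefSeq windows of assembly GRCm38.p6, from 250 bases before to 50 bases after a transcript's start, were found for 26 of the 32 genes (27 windows, as Prc1 has 2). The CHR, searched as TTTGAA or TTCGAA on both strands, was present in 21 of the 27 windows (77.8%) and in 19.2% of all 32851 windows. The CCAAT box, searched as CCAAT on both strands, was likewise present in 21 of 27, against 37.4% of all windows, and 18 windows (66.7%) held both, against 7.52%. An E2F site, searched as TTTGGCGC or TTTCGCGC on both strands, was present in 1 of 27 windows, that of Cdk1, and in 0.813% of all. These are matches of letters, and no binding was measured. Of the genes with both a window and a value, the 20 with a CHR had a median of -0.43, -0.10 and 0.07 relative to wt in double replicates 1, 2 and 3. The 5 without one (Birc5, Cenpe, Mad2l1, Nek2 and Nuf2) had 0.01, -0.16 and -0.02. In double replicate 1 the genes with a CHR ran from -0.82 (Plk1) to 0.35 (Cenpa). Those without one ran from -0.64 (Nek2) and -0.59 (Cenpe) to 0.19 (Birc5), so the values overlapped. The difference between genes with and without a CHR was not tested.

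Windows of 4 genes are shown 5′ to 3′ along the gene, chosen after their values were seen, because these genes behaved differently in the double arrays; capitals mark the CHR and CCAAT matches, a CCAAT on the other strand reading ATTGG. Cdc20 lay lower in all 3 double arrays than in any other array on the probe set used, Plk1 was the lowest of the 31 in double replicate 1, Cenpa was the highest there, and Nek2 had the smallest p in double against p53, acd and wt.
Cdc20, chr4:118437294-118437593, - strand: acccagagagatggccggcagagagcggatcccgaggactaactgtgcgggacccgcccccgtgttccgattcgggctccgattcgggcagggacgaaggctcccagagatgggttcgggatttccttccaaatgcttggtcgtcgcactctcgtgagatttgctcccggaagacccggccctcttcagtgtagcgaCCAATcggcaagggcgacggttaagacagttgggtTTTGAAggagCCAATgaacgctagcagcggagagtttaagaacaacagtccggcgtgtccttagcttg
Plk1, chr7:122159185-122159484, + strand: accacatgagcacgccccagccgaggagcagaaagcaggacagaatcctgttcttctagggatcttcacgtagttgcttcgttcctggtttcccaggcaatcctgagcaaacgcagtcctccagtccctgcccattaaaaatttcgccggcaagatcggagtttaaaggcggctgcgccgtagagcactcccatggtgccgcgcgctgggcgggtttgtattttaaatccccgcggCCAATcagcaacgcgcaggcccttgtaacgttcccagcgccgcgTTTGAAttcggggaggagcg
Cenpa, chr5:30666636-30666935, + strand: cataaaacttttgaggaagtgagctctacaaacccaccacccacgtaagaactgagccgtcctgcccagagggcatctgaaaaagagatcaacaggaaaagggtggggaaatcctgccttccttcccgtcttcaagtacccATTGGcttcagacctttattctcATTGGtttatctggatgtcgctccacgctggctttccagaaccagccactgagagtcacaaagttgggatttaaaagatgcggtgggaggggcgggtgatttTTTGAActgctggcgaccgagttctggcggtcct
Nek2, chr1:191821223-191821522, + strand: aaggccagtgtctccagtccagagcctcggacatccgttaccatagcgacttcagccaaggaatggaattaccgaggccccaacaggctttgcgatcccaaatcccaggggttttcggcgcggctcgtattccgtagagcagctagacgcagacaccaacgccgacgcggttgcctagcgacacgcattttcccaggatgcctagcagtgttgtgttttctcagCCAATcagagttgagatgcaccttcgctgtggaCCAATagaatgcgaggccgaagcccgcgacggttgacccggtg
The windows of Cdc20, Plk1 and Cenpa hold a CHR, starting at positions -18, 31 and 17 relative to the transcript's start, and that of Nek2 holds CCAAT boxes alone.

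The genes of mitotic entry differed from each other in the double arrays. Ccna2, cyclin A2, which acts from S phase to early mitosis, measured 11.54, 11.84 and 11.78 in double arrays, 11.80, 11.81 and 11.75 in acd, 11.88, 11.65 and 11.86 in p53 and 11.84, 11.81 and 11.76 in wt. Only double replicate 1 lay below the range of the other arrays, and double minus p53 was -0.08 ± 0.09 (SE, limma adjusted p = 0.698). Ccnb2, cyclin B2, a partner of Cdk1, measured 11.31, 11.30 and 11.30 in double, 11.36, 11.28 and 11.24 in acd, 11.22, 11.10 and 11.23 in p53 and 11.22, 11.22 and 11.23 in wt. Both the double and the acd arrays lay wholly above wt. Acd minus wt was 0.07 ± 0.07, a difference about as large as its error. Wholly above wt in acd against wt, on the probe sets used, lay Ccnb2, Aurkb and Tpx2, 3 of 31 genes, where 7.24% of all genes did. Cdk1, the kinase that drives mitosis, measured 11.60, 11.16 and 11.44 in double, 11.51, 11.43 and 11.57 in acd, 11.33, 11.38 and 11.52 in p53 and 11.45, 11.44 and 11.44 in wt. It was highest in double replicate 1 and lowest in double replicate 2, with the wt arrays between them.

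Of the phosphatases that activate Cdk1, Cdc25b measured 8.78, 8.83 and 8.75 in double, 8.82, 8.81 and 8.81 in acd, 8.80, 8.88 and 8.59 in p53 and 8.84, 8.88 and 8.68 in wt. All groups overlapped, and double minus p53 was 0.03 ± 0.09. Cdc25c averaged 8.30 ± 0.07 in double and 8.46 ± 0.02 in acd embryos (SD, n = 3 each). Its double arrays lay wholly below the acd arrays on the probe set used. On a second Cdc25c probe set double replicate 3 (8.037) lay above acd replicates 1 and 2 (7.988 and 7.937).

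Among the mitotic kinases Nek2, which separates the centrosomes, had the smallest p in double against p53, acd and wt. It measured 8.93, 9.02 and 9.48 in double, 9.59, 9.59 and 9.69 in acd, 9.39, 9.39 and 9.71 in p53 and 9.55, 9.60 and 9.56 in wt. Double replicates 1 and 2 lay below every other array, and replicate 3 lay within the range of p53 but below acd and wt. Double minus acd was -0.48 ± 0.13, a ratio of 0.716 (limma adjusted p = 0.371), double minus wt was -0.43 ± 0.13 (0.447) and double minus p53 was -0.35 ± 0.13 (0.463). Its 2 other probe sets above the filter lay -0.54, -0.26 and 0.13, and -0.28, -0.14 and -0.16, relative to the wt mean in double replicates 1, 2 and 3, so they differ in sign in replicate 3. Plk1, the polo kinase needed for spindle assembly, measured 9.90, 10.56 and 10.80 in double, 10.74, 10.75 and 10.67 in acd, 10.73, 10.58 and 10.68 in p53 and 10.74, 10.73 and 10.67 in wt. The low mean of double rests on replicate 1, while replicate 3 was the highest of the 12 arrays, and double minus p53 was -0.24 ± 0.17. Without double replicate 1 that difference was 0.02. Aurka, the Aurora kinase of the centrosome, measured 9.99, 9.54 and 9.94 in double, 9.97, 10.02 and 10.18 in acd, 9.96, 9.44 and 10.03 in p53 and 9.997, 10.08 and 10.01 in wt. It was lowest in p53 replicate 2 and double replicate 2, and p53 minus wt was -0.22 ± 0.15, or -0.031 without p53 replicate 2.

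**Figure D4:**
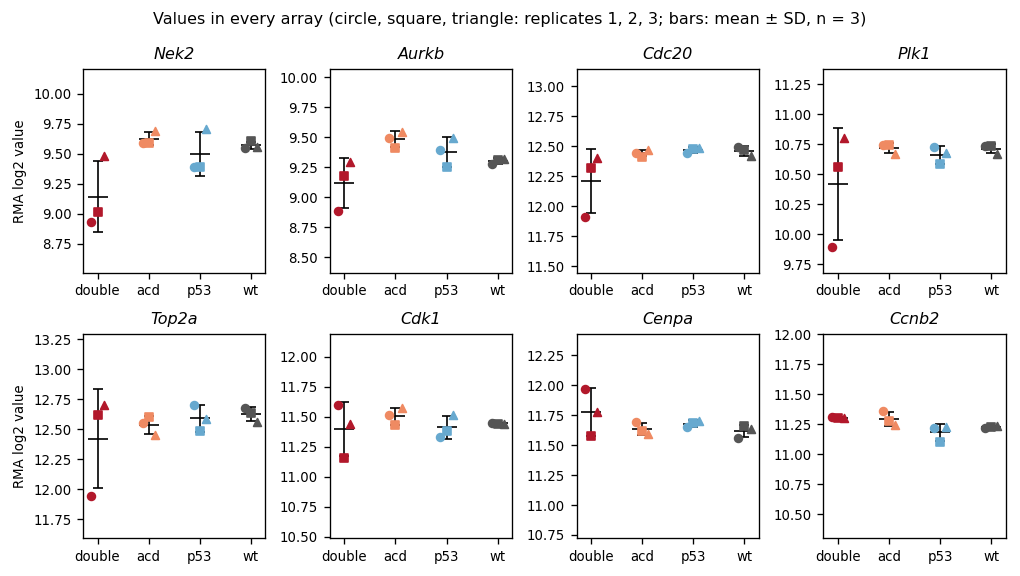
Each panel gives the RMA log2 values of 1 gene in all 12 arrays by genotype, with circles, squares and triangles for replicates 1, 2 and 3 and bars for the mean ± SD (n = 3); every panel spans the same log2 range. Nek2, Aurkb, Cdc20, Plk1 and Top2a have their lowest value in double replicate 1, Cdk1 and Cenpa their highest.

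The 4 checkpoint genes were lower in double than in p53, acd and wt by their means. Ttk, the kinase Mps1 at the head of the checkpoint, averaged 9.69 ± 0.46 in double, 9.89 ± 0.04 in acd, 9.92 ± 0.03 in p53 and 9.89 ± 0.04 in wt (SD, n = 3 each). Double replicate 1 was at 9.18 and replicate 3, at 10.08, above every other array. Bub1b, the checkpoint protein BubR1, measured 9.66, 10.02 and 10.15 in double, 10.20, 10.11 and 10.15 in acd, 10.09, 10.31 and 10.23 in p53 and 10.13, 10.29 and 10.22 in wt. Double replicate 3 lay among the other arrays, and double minus wt was -0.27 ± 0.11 (limma adjusted p = 0.448). Bub1 averaged 10.92 ± 0.23 in double and 11.07 ± 0.03 in wt. Mad2l1, the inhibitor of Cdc20 known as Mad2, measured 11.66, 11.40 and 11.69 in double, 11.64, 11.63 and 11.72 in acd, 11.59, 11.57 and 11.696 in p53 and 11.63, 11.67 and 11.64 in wt. Only double replicate 2 was low, and double minus p53 was -0.04 ± 0.08.

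Kinetochore and centromere genes did not move as one. Cenpa, the histone variant that marks centromeres, measured 11.97, 11.57 and 11.78 in double, 11.69, 11.61 and 11.59 in acd, 11.65, 11.68 and 11.704 in p53 and 11.56, 11.66 and 11.63 in wt. Double replicate 1 was the highest of the 12 arrays, and double minus p53 was 0.10 ± 0.09. Relative to the wt mean the probe set used lay at 0.35, -0.044 and 0.16 in double replicates 1, 2 and 3, and a dimmer Cenpa probe set at -0.51, -0.46 and 0.42, so the sign in replicate 1 depends on the probe set. Cenpe, the kinetochore kinesin, was 0.59 below the wt mean in double replicate 1 and 0.36 and 0.43 above it in replicates 2 and 3, where a second probe set gave -0.65, -0.10 and -0.04. Cenpf averaged 10.15 ± 0.36 in double and 10.34 ± 0.03 in wt. Of the microtubule-binding Ndc80 complex, Ndc80 measured 8.61, 8.75 and 9.002 in double, 8.998, 8.97 and 8.89 in acd, 8.96, 9.06 and 8.97 in p53 and 8.94, 8.90 and 8.97 in wt. Replicates 1 and 2 of double were the lowest of the 12 arrays, and its interaction was -0.23 ± 0.13 (limma adjusted p = 0.879). Nuf2, its partner in that complex, lay 0.10 above the wt mean in double replicate 1 and 0.16 and 0.19 below it in replicates 2 and 3.

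In the chromosomal passenger complex, which corrects wrong attachments, no gene passed, and the means of Aurkb and Incenp in double lay below those of the other genotypes. Aurkb, the kinase of the complex, measured 8.89, 9.18 and 9.29 in double, 9.50, 9.41 and 9.54 in acd, 9.39, 9.25 and 9.50 in p53 and 9.27, 9.31 and 9.32 in wt. The acd arrays lay above every double and every wt array. Double minus acd was -0.36 ± 0.10 (limma adjusted p = 0.371), double minus p53 -0.26 ± 0.10 (0.463), acd minus wt 0.18 ± 0.10, p53 minus wt 0.08 ± 0.10 and the interaction -0.44 ± 0.15 (0.879). A second Aurkb probe set lay -0.36, -0.04 and 0.19 relative to the wt mean in double replicates 1, 2 and 3. Incenp, the scaffold of the complex, measured 11.33, 11.68 and 11.80 in double, 11.77, 11.79 and 11.81 in acd, 11.80, 11.88 and 11.86 in p53 and 11.78, 11.85 and 11.78 in wt. The double arrays lay wholly below p53, but replicate 3 (11.802) and p53 replicate 1 (11.803) were nearly equal. On a second probe set double replicate 3 (9.766) lay above p53 replicates 1 and 2 (9.731 and 9.756). For the probe set used, double minus p53 was -0.24 ± 0.10 (limma adjusted p = 0.463). Birc5, survivin, averaged 11.52 ± 0.17 in double, 11.53 ± 0.03 in acd, 11.52 ± 0.06 in p53 and 11.51 ± 0.02 in wt.

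The spindle motors were lowest in double replicate 1. Kif2c, a kinesin that shortens microtubules, measured 9.89, 10.47 and 10.61 in double, 10.47, 10.51 and 10.56 in acd, 10.62, 10.58 and 10.56 in p53 and 10.60, 10.59 and 10.57 in wt. Its double replicate 3 lay within the other genotypes, and double minus p53 was -0.26 ± 0.14. Kif11, the motor Eg5 that separates spindle poles, was 0.70 below the wt mean in double replicate 1 and 0.10 and 0.09 above it in replicates 2 and 3. Tpx2, which activates Aurka on the spindle, measured 10.06, 10.21 and 10.47 in double, 10.40, 10.39 and 10.41 in acd, 10.31, 10.46 and 10.47 in p53 and 10.33, 10.36 and 10.29 in wt. Acd lay wholly above wt by a small step on the probe set used, and p53 minus wt was 0.08 ± 0.10. On a second Tpx2 probe set acd replicates 2 and 3 (8.760 and 8.824) lay below every wt array (8.894 to 8.942).

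Of the partners of the anaphase-promoting complex, Cdc20, its activator, measured 11.91, 12.32 and 12.40 in double, 12.44, 12.41 and 12.47 in acd, 12.44, 12.47 and 12.49 in p53 and 12.50, 12.47 and 12.42 in wt. All 3 double arrays lay below all 9 others, replicate 3 by a small margin. Its 2 other probe sets lay at -0.38, -0.30 and -0.048 and at -0.43, -0.30 and -0.027 relative to the wt mean in the double arrays, but did not separate the groups. On one of them p53 replicate 2 (11.350) lay below all 3 double arrays, and on the other double replicate 3 (9.427) lay above acd replicate 2 (9.393), p53 replicate 2 (9.417) and wt replicate 1 (9.389). Double minus p53 was -0.26 ± 0.11 (limma adjusted p = 0.463), double minus wt -0.25 ± 0.11 (0.448) and double minus acd -0.23 ± 0.11 (0.4). Ube2c, the ubiquitin-conjugating enzyme of the complex, measured 12.72, 12.66 and 12.76 in double, 12.71, 12.66 and 12.68 in acd, 12.66, 12.74 and 12.63 in p53 and 12.63, 12.63 and 12.68 in wt. It held within a narrow range in all genotypes, and double minus p53 was 0.039 ± 0.065.

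Top2a, the topoisomerase that untangles sister chromatids, measured 11.94, 12.62 and 12.70 in double, 12.55, 12.60 and 12.45 in acd, 12.70, 12.48 and 12.59 in p53 and 12.68, 12.63 and 12.56 in wt. Only double replicate 1 was low, and double minus p53 was -0.17 ± 0.16, or 0.07 without that array. Mki67, which coats mitotic chromosomes and marks cycling cells, measured 11.53, 12.16 and 11.99 in double, 11.79, 12.004 and 11.71 in acd, 12.13, 12.001 and 11.81 in p53 and 12.06, 12.02 and 11.98 in wt. Acd replicates 1 and 3 and p53 replicate 3 lay below wt as well, and acd minus wt was -0.19 ± 0.15.

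Central spindle and cytokinesis genes had a role median of -0.38, -0.14 and 0.07 relative to wt in double replicates 1, 2 and 3. Prc1, which bundles the microtubules of the central spindle, measured 10.001, 10.09 and 10.24 in double, 10.32, 10.25 and 10.22 in acd, 10.27, 10.18 and 10.21 in p53 and 10.19, 10.21 and 10.24 in wt. Double minus p53 was -0.11 ± 0.07, and double replicate 3 lay among the other arrays. The kinesin Kif20a, which brings the passenger complex to the central spindle, averaged 9.97 ± 0.33 in double and 10.21 ± 0.04 in wt, and Kif23, another kinesin of the central spindle, averaged 9.61 ± 0.34 in double and 9.85 ± 0.02 in wt. Anln, anillin of the cleavage furrow, averaged 10.07 ± 0.12 in double and 10.09 ± 0.06 in wt.

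The 31 genes were read by 67 probe sets in all, 60 of them above that filter. Below the wt mean lay 51 of those 60 in double replicate 1, 48 in replicate 2 and 25 in replicate 3. Of 19 genes with several such probe sets, 17 had one sign in double replicate 1, and Cenpa and Tpx2 did not. The probe sets used for Cdc20, Aurkb, Incenp, Kif2c, Nek2, Bub1b and Prc1 carry the suffix _x_at or _s_at, by which the manufacturer marks probes that can also match other transcripts. The 32 genes lie on 14 chromosomes, with at most 6 on one, chromosome 2.

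Double replicate 1 differed from the other arrays in a further measure over all genes. Across 13477 tested genes its difference from wt had a Spearman correlation of -0.33 with the genomic span of the gene, against -0.12 to 0.13 in the other 11 arrays. Across the 31 mitosis genes it was -0.36, below the range of the other 11 arrays (-0.30 to 0.36), though p53 replicate 2 reached a like size with the opposite sign. Genes are not independent replicates, and genomic span is not transcript length. The array's 3′ minus 5′ signal was 0.48 for the actin control and 0.01 for the Gapdh control, against 0.37 to 0.51 and 0.04 to 0.20 in the other 11 arrays, so its actin value lay within their range and its Gapdh value below it.

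Other genes of the pathway were set beside these. Of 53 further mitosis genes tested, 0 passed in any comparison, and 37 were lower in double than in p53, with a median of -0.07. Their list median relative to wt was -0.22, -0.073 and -0.00094 in double replicates 1, 2 and 3. Of 36 DNA replication genes 0 passed and 31 were lower in double than in p53, with a median of -0.16 and list medians of -0.33, -0.18 and 0.032 in the 3 double arrays. The difference between these lists and the 31 mitosis genes was not tested. Wee1 and Pkmyt1, kinases that hold Cdk1 inactive, and Cdc25a were each lower in double than in p53, with differences of -0.19 ± 0.13, -0.12 ± 0.08 and -0.20 ± 0.17, and 0 of 3 passed. Relative to wt, double replicates 1, 2 and 3 lay at -0.58, -0.037 and 0.051 for Wee1 and at -0.68, 0.058 and 0.20 for Cdc25a. For Pkmyt1 they lay at -0.14, 0.025 and -0.088. Replicate 1 was the lowest double array for each of these genes. For Pkmyt1 replicate 3 lay below every acd, p53 and wt array as well.

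Of 12 regulators of these promoters, in the DREAM complex or with Foxm1 and B-Myb, 0 passed and 10 were lower in double than in p53, with a median of -0.098. Mybl2, which encodes B-Myb, an activator of G2 genes, measured 7.17, 7.37 and 7.71 in double, 7.65, 7.73 and 7.91 in acd, 7.73, 7.65 and 7.82 in p53 and 7.71, 7.80 and 7.73 in wt. Its double replicates 1 and 2 lay below every other array, as they did for 16 of the 31 mitosis genes and 12.5% of all genes, and double minus p53 was -0.31 ± 0.12 (limma adjusted p = 0.463). Rbl2, the pocket protein p130 of the repressor form of DREAM, measured 6.19, 6.31 and 5.87 in double, 5.97, 5.85 and 5.80 in acd, 5.87, 5.72 and 5.89 in p53 and 5.96, 5.89 and 5.91 in wt. It went the other way, with double replicates 1 and 2 above every other array, and double minus p53 was 0.29 ± 0.11 (limma adjusted p = 0.463). The share of all genes with those arrays highest was not counted. Rbl2 was among the 2 of 12 regulators higher in double than in p53. Rbl1, a related pocket protein, lay at -0.11, 0.10 and -0.026 relative to wt in double replicates 1, 2 and 3.

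Among 14 p53 targets of cell cycle arrest 0 passed in any comparison. Cdkn1a, which encodes the Cdk inhibitor p21, measured 8.06, 8.07 and 8.06 in double, 8.02, 8.83 and 8.99 in acd, 7.92, 8.04 and 8.02 in p53 and 8.09, 8.09 and 8.04 in wt. It was high in acd replicates 2 and 3 alone (acd minus wt 0.54 ± 0.19, limma adjusted p = 1). In those same 2 arrays the median of the 31 mitosis genes lay at -0.0033 and 0.0074 relative to wt. In the 3 double arrays Cdkn1a lay within the range of the wt arrays. They lay wholly above the p53 arrays by a small step, where 3.29% of all genes did. Ccng1, another of the 14, measured 8.44, 8.51 and 8.33 in double and 8.34, 10.16 and 10.34 in acd. It measured 8.32, 8.54 and 8.39 in p53 and 9.22, 9.26 and 8.75 in wt. Acd replicate 1 thus lay below wt and within the range of the p53 arrays, and acd replicates 2 and 3 lay above wt. Whether p53 acted less in acd replicate 1 was not tested.

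Lists of interferon response, macrophage, and visceral endoderm and liver genes were high in double replicates 1 and 2. Interferon response genes (7 of 14 listed were tested) had list medians of 4.002, 3.06 and 0.20 above wt in double replicates 1, 2 and 3, and between -0.04 and 0.20 in the other arrays. Over 12 measured interferon genes the mean level ran from 4.95 to 8.38 in double, 4.86 to 4.95 in acd, 4.76 to 4.86 in p53 and 4.73 to 4.79 in wt. Usp18, Irf7, Ifit1, Ifit3, Oasl2 and Mx1 lay at or below the 40th percentile in all wt and all p53 arrays. Macrophage markers (11 of 12 tested) had medians of 1.07, 0.89 and -0.15 relative to wt, with mean levels of 5.53 to 7.04 in double, 5.48 to 5.77 in acd, 5.51 to 5.83 in p53 and 5.65 to 5.76 in wt, and Aif1 at or below the 40th percentile in all acd, p53 and wt arrays. Visceral endoderm and liver markers (10 of 12 tested) had medians of 1.70, 1.28 and 0.31, with mean levels of 7.03 to 8.36 in double, 7.06 to 7.17 in acd, 6.58 to 7.97 in p53 and 6.75 to 6.87 in wt, and Fga at or below that percentile in all arrays. In p53 replicate 2 they lay at 1.26, while the mitosis median of that array was -0.0088. Erythroid markers had medians of 0.60, 0.15 and -0.43 in the double arrays, and neuron markers -0.030, 0.59 and -0.088. These lists varied outside double as well. The erythroid median was 0.67 in acd replicate 2 and -0.49 in p53 replicate 3, and the neuron median -0.51 in acd replicate 3. Neural progenitor markers had -0.36, 0.0047 and -0.011 in the double arrays and -0.094 to 0.039 in the others. Heart muscle markers had 0.16, -0.13 and -0.56 in the double arrays and -0.033 to 0.14 in the others. The part of these cell types and of the interferon genes in the mitosis result was not tested.

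**Figure D5:**
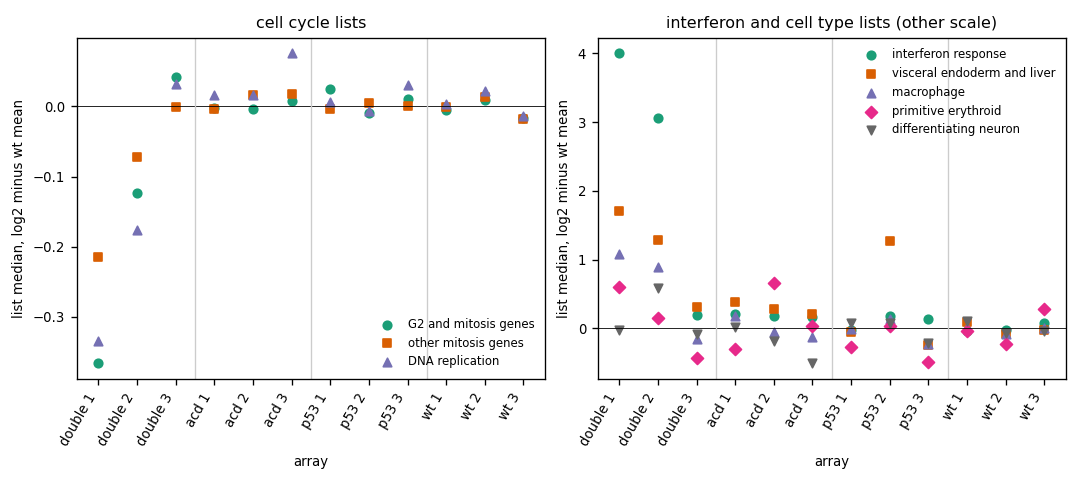
Points are the medians of gene lists in each array, as log2 value minus the mean of the 3 wt arrays; cell cycle lists are on the left and interferon and cell type lists on the right, on another scale. The mitosis and replication medians are lowest in double replicates 1 and 2 (-0.37 and -0.12, -0.33 and -0.18), where the interferon medians are 4.002 and 3.06.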

How the data were processed

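Biotin-labelled RNA from 250 ng of total RNA per sample was hybridised to arrays, per the labels' protocols. The deposited values are log2 values that the authors made from scanner files with justRMA (background correction, quantile normalization, summary per probe set), and they selected genes with BRB-Array tools 4.4.0, per the series' design text; RMA hides changes in total RNA per embryo. The platform annotation gave 1 symbol to 34945 of 45101 probe sets, of which 34741 matched RefSeq (GRCm38.p6, used for names, chromosomes and promoters). Each gene was read from its brightest probe set, and genes at or under the 40th percentile on more than 9 arrays were not tested.

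A mean per genotype was fitted with limma 3.58.1 in R 4.3.3 (8 residual degrees of freedom, eBayes, two-sided, Benjamini-Hochberg over 13501 genes). The number of arrays limits the precision.

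Alternatives were other filters, thresholds, scalings, probe set summaries, variance models, array weights, a replicate block and left-out arrays. Values in every array are given for the gene of each role with the highest mean. They are also given for the 3 genes with the smallest p in each comparison. Cdk1, Mybl2, Rbl2, Rbl1, Cdkn1a and Ccng1 and the other genes given by means were added after their values were seen. Genes and lists were chosen with earlier results of these data known.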

Additional observations from a re-analysis of the deposited data

Results flagged for a closer look

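For Aurkb and Nek2 the arrays lay on opposite sides of their controls with and without the p53-/- genotype, on the probe sets used. Neither interaction passed. Every double array lay below the p53 mean and every acd array above the wt mean, as held for 4.08% of all genes and for these 2 of the 31. For Aurkb the double arrays lay -0.49, -0.20 and -0.08 from the p53 mean and the acd arrays 0.20, 0.11 and 0.24 from the wt mean, and its interaction was -0.44 ± 0.15 (limma adjusted p = 0.879). For Nek2 the double arrays lay -0.57, -0.48 and -0.02 from the p53 mean and the acd arrays 0.02, 0.02 and 0.12 from the wt mean, and its interaction was -0.41 ± 0.19 (limma adjusted p = 0.879). Nek2 acd minus wt was 0.054 ± 0.13. Other probe sets did not keep the pattern: on the second Aurkb probe set double replicate 3 (9.468) lay above every p53 array and acd replicate 2 (9.245) below every wt array, and on the second Nek2 probe set double replicate 3 (8.197) lay above every p53 array.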

How the results depend on the processing

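Of 274 recomputed counts of passing mitosis genes and medians, 14 moved by more than the spread between arrays or gained genes. Many others could not move: filters on dim genes, the p threshold and left-out arrays of other genotypes leave a median as it was. For double against p53 that spread was 0.146, larger than the size of the median, so even a fall to no difference would not count as a move. Smaller moves could be large in proportion: the double against p53 median was -0.14 with all arrays and -0.051 without double replicate 1. The count that passed, 0 in every comparison, was 3 in double against acd and 2 in double against wt with array weights. Leaving out each array in turn gave 0 to 7 genes in double against p53, 0 to 5 in double against acd, 0 to 4 in double against wt and 0 to 1 in the interaction, the highest each time without double replicate 3. The medians ran from -0.27 to -0.051, from -0.28 to -0.050, from -0.26 to -0.046 and from -0.26 to -0.039 in the same comparisons, lowest without double replicate 3 and highest without replicate 1. The acd against wt median ran from -7.1e-05 to 0.027. Without double replicates 1 and 2 the medians were 0.041 in double against p53, 0.047 in double against acd, 0.042 in double against wt and 0.053 in the interaction, and describe 1 double array. The labels do not say that a replicate number is shared between genotypes, so the numbers were not taken as pairs. Deviations of same-numbered arrays correlated at -0.226 to 0.395, over 0.1 in 7 of 18 pairs. For replicate 3 they were 0.395 in acd with p53, 0.3 in double with acd and 0.206 in double with p53. With wt replicate 3 they were -0.0305 for double, -0.0441 for acd and -0.156 for p53. Whether the replicate 3 arrays of the mutants shared a factor was not tested. Every genotype has each replicate number once, so a replicate block cannot move a difference between genotypes. The double against p53 median of -0.14 under the block therefore tells nothing further. The block can change the errors, and with it 0 of the 31 genes passed, where 0.00741% of all genes did. In double against p53 some genes changed sign. With array weights Top2a had a difference of 0.0064, Ccna2 0.0070 and Cenpa -0.066. With each array left out Top2a ran from -0.31 to 0.069, Ccna2 from -0.15 to 0.012, Cenpa from -0.0021 to 0.20, Mad2l1 from -0.089 to 0.055, Plk1 from -0.43 to 0.019 and Cdc25b from -0.055 to 0.088. With replicate 3 as the only double array Top2a had 0.11, Mad2l1 0.072, Plk1 0.14, Kif2c 0.026, Prc1 0.018 and Cdc25b -0.0069. The cause was not tested.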
